A study of Mus musculus with 12 samples.

Results

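Kidney CD4 T cells without Keap1 were compared with WT cells after ischemia-reperfusion injury (IRI), across protein-coding genes. The genes described are the 12065 protein-coding genes, of 21896 in the table, with a mean of at least 1 FPKM (fragments scaled for transcript length and library) over all 12 libraries. The libraries compared are 6 of those 12, with 3 in WT IRI and 3 in CD4 Keap1 KO IRI (KO IRI below). WT mice were C57BL6/J animals bought from a supplier, and KO mice carried the CD4 Keap1 KO on the same background and were bred in house, so genotype and source of the mice cannot be told apart. Both IRI groups had 30 min of ischemia of both kidneys and were harvested at 24 h. The control groups, used for the spread and for values given beside the results, were separate mice of each genotype, and the labels do not say that they had sham surgery. The labels give no age or sex, do not say how Keap1 was deleted or what drives its loss, and do not say that replicates were separate animals. P-values therefore measure the spread between these libraries, which may be technical.

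KEAP1 is an adaptor that brings NRF2, a transcription factor and the product of Nfe2l2, to a ubiquitin ligase built on CUL3, so that NRF2 is degraded. When KEAP1 is lost or oxidised, NRF2 enters the nucleus, pairs with small MAF proteins and binds antioxidant response elements. Its targets make and use glutathione, reduce thioredoxin and peroxides, supply NADPH, and handle quinones, heme and iron.

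The defining markers of CD4 T cells were present. Cd4 lay between 63.1 and 216 and Cd3e, a signalling subunit of the T cell receptor complex, between 88.9 and 175 in the 6 libraries. These and all levels below are FPKM divided by a median-ratio factor for each library (scaled FPKM). Cd8a was at most 3.57, Cd8b1 at most 3.52 and Ncr1, which defines natural killer (NK) cells, at most 0.473, while NK receptors such as Klrc1 were also present. The 4 CD8 markers (Cd8a, Cd8b1, Runx3 and Itgae) summed to 47.6 to 63.5, most of it from Runx3 and Itgae. WT IRI 3 stood apart from its group. Its Spearman correlations with WT IRI 1 and 2 across genes were 0.926 and 0.912, against 0.939 to 0.964 for the other pairs within a group. Pairs between the groups without WT IRI 3 had 0.927 to 0.961, so these correlations did not separate the genotypes. WT IRI 3 has the smallest factor of the 6, 0.755 against 0.961 to 1.16. Some of the counts below are therefore also given without WT IRI 3.

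Keap1 (chromosome 9, 21229730 to 21239361, minus strand, GRCm38) was detected in each library. It read 8.94, 6.56 and 8.0 in WT IRI 1 to 3 and 5.41, 5.68 and 4.19 in KO IRI 1 to 3. The KO libraries were all below the WT libraries, but the difference of −0.53 ± 0.16 on the log2(scaled FPKM + 1) scale did not pass the threshold (SE, n = 3, limma, adjusted p = 0.184). In controls the difference was −0.69 ± 0.16. Which exons were removed is not given in the labels, and transcripts that lack them can still be counted in a gene-wide level, so Keap1 does not check the labels here.

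Of the 12065 protein-coding genes, 8 passed an adjusted p of 0.05 (limma with Benjamini-Hochberg adjustment over all 19288 genes tested), or 0.0663% of them. 6 rose in KO IRI (0.0497%) and 2 fell (0.0166%). 4 of the 6 that rose are NRF2 targets for redox defence, namely Nqo1, Txnrd1, Prdx1 and Cat, and the others were Cd4 and Trim59. The 2 that fell, Klrc1 and Klrc2, encode NK-type lectin receptors. The gene lists behind these roles were drawn up with results of these data known, so the groupings are descriptions.

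Txnrd1 encodes the cytosolic thioredoxin reductase, which passes electrons from NADPH to thioredoxin (chromosome 10, 82833951 to 82897712, plus strand). Its levels were 28.8, 27.7 and 24.3 in WT IRI and 72.7, 65.0 and 68.7 in KO IRI. Every KO library was above every WT library, and the 2 groups were each tight. The log2 rise of Txnrd1 was 1.32 ± 0.15 (SE, n = 3, adjusted p = 0.0203, limma), and the ratio of group means was 2.56.

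Prdx1, a peroxiredoxin that reduces peroxides with electrons from thioredoxin (chromosome 4, 116685544 to 116700822, plus strand), had 32.5, 28.8 and 31.3 in WT IRI. In KO IRI it had 61.3, 61.5 and 74.3. The groups did not overlap and KO IRI 3 was the highest. The rise was 1.06 ± 0.12 (adjusted p = 0.0203, limma), with a ratio of means of 2.13. Of the 36-base words in its annotated transcripts (the read length per the labels), 13% also occur in transcripts of other genes, 117 in number.

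The promoters of both genes hold the letters TGACNNNGC (any base at N), the core of the antioxidant response element. The stretches are shown because Txnrd1 and Prdx1 had the smallest adjusted p among the protein-coding genes. They come from RefSeq (GRCm38.p6), are printed 5′ to 3′ on the gene's strand, and have the core in capitals, where it reads as the reverse complement. Prdx1 has its core 133 bases before the start of transcription, in the stretch chr4:116685416-116685524 on the plus strand. The Txnrd1 core lies 92 bases before the second of 3 annotated starts, in chr10:82859064-82859172 on the plus strand.
Prdx1: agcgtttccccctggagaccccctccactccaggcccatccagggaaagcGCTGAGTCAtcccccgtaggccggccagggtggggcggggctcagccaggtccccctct
Txnrd1: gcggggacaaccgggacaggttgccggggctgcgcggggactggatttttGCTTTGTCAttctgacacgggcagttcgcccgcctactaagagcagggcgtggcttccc
Both stretches lie outside all annotated exons. Counting both strands of the 250 bases before each start, 10.2% of 32851 promoter windows hold the core, as do 11.5% of 27025 genes in at least 1 window. Of the 8 genes, 7 had a window in this table and 3 held a match, the third being Trim59, with its core 220 bases before the start. The windows of Nqo1, Cat, Klrc1 and Klrc2 hold no match, which says only that these letters are not in that window.

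Cat encodes catalase, which splits hydrogen peroxide in peroxisomes (chromosome 2, 103453849 to 103485160, minus strand). WT IRI libraries read 8.65, 12.1 and 10.8, and KO IRI libraries 29.2, 24.6 and 24.0. Each KO library was above each WT library. Cat rose by 1.23 ± 0.15 (adjusted p = 0.0217, limma), with a ratio of means of 2.47.

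Nqo1 is a quinone reductase and a standard readout of NRF2 (chromosome 8, 107388225 to 107403206, minus strand). It was near 0 in WT IRI, reading 0.414 and 0.566 in WT IRI 1 and 2 and listed at 0 in WT IRI 3. The KO IRI libraries read 5.95, 3.23 and 4.39, all above the WT libraries, with KO IRI 1 the highest. Nqo1 rose by 2.05 ± 0.25 on the log2(scaled FPKM + 1) scale (adjusted p = 0.0232, limma), a scale that understates the change of a gene this low. The call was lost with a pseudocount of 0.1 (adjusted p = 0.0775) or 5 (adjusted p = 0.0521). A 0 in this table can be a failed estimate, so a gene at 0 is described only as listed at 0.

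Cd4 itself, the coreceptor that defines these cells (chromosome 6, 124864692 to 124888221, minus strand), read 71.8, 63.1 and 65.9 in WT IRI. KO IRI read 204, 142 and 216. The groups were well apart, and KO IRI 2 was the lowest of its group. Cd4 rose by 1.45 ± 0.20 (adjusted p = 0.0437, limma), a ratio of means of 2.80. In these bulk samples, fewer cells of a type and less RNA per cell cannot be told apart.

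Trim59 encodes a tripartite-motif protein with a ubiquitin ligase domain (chromosome 3, 69035288 to 69044755, minus strand). Its levels were 7.35, 7.09 and 11.2 in WT IRI against 23.0, 19.7 and 27.3 in KO IRI. WT IRI 3 was the highest WT library but still below each KO library. The rise was 1.37 ± 0.19 (adjusted p = 0.0443, limma), or 2.74 times by the means.

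Klrc1 and Klrc2 encode NKG2A and NKG2C, the inhibitory and the activating receptor that pair with CD94 (the product of Klrd1) to read MHC class Ib molecules. Klrc1 (chromosome 6, 129666015 to 129678973, minus strand) read 22.4, 14.5 and 21.6 in WT IRI and 2.74, 1.46 and 1.02 in KO IRI. Klrc2 (chromosome 6, 129647496 to 129660689, minus strand) read 9.94, 5.91 and 9.18 in WT IRI and 1.22, 1.30 and 0.777 in KO IRI. For both genes the lowest WT library was several times the highest KO library. Klrc1 fell by 2.93 ± 0.34 on the log2 scale (adjusted p = 0.0210, limma), and its WT mean was 11.2 times the KO mean. Klrc2 fell by 2.14 ± 0.30 (adjusted p = 0.0443, limma). The genes are neighbours and near copies: 49% of the 36-base words of Klrc1 transcripts occur in another gene, most of them in Klrc2. How the reads were split between them is uncertain.

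**Figure D1:**
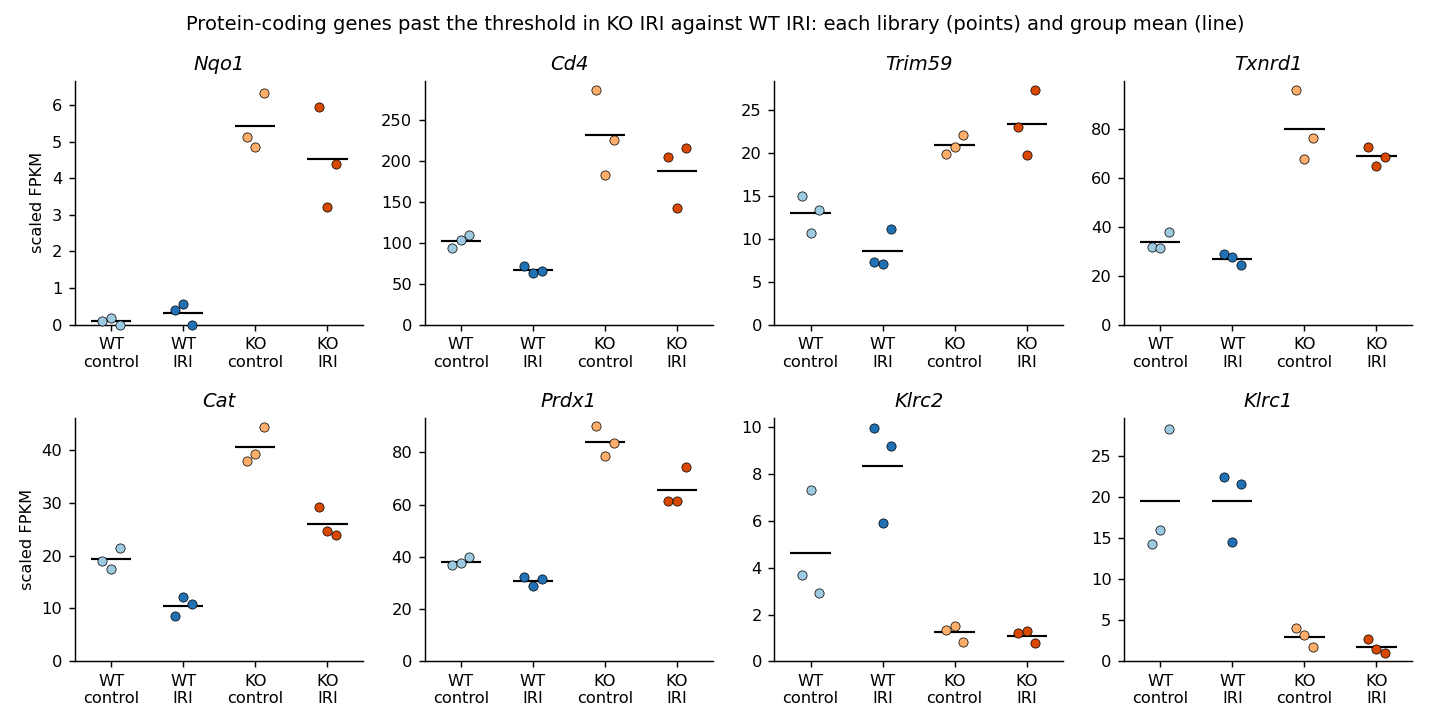
Scaled FPKM (y axes, each from 0) of the 8 protein-coding genes past the threshold in each library (points) of the 4 groups, with group means as lines. In each panel the KO IRI points all lie on one side of the WT IRI points, above for 6 genes and below for Klrc1 and Klrc2, and the KO control points lie on the same side of the WT control points.

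**Figure D2:**
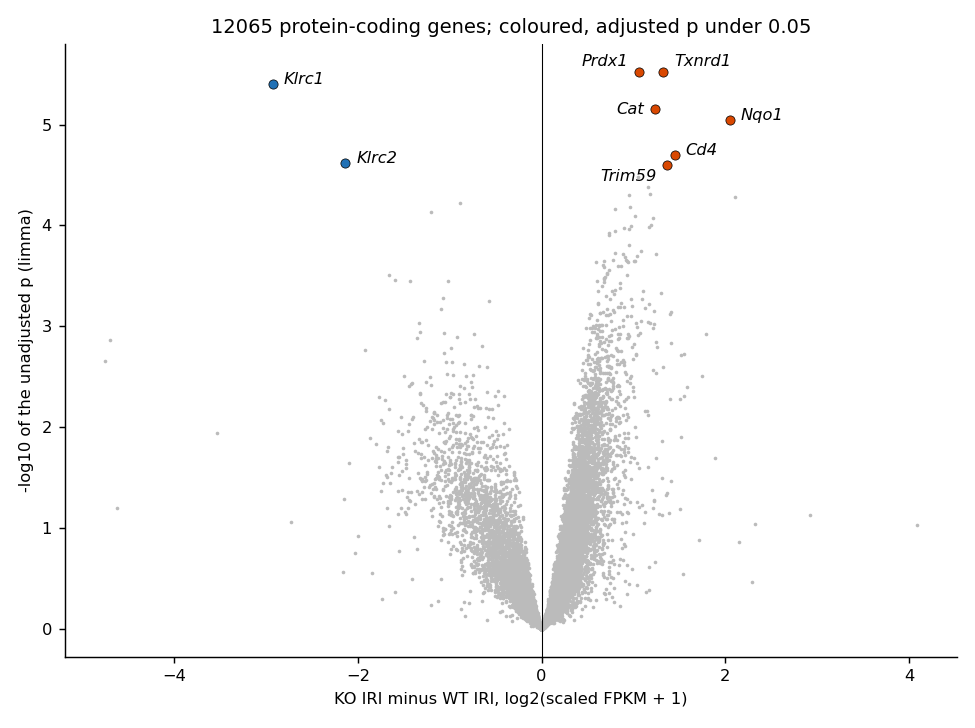
Log2 difference between KO IRI and WT IRI (x axis) and −log10 of the unadjusted limma p (y axis) for 12065 protein-coding genes, with the 8 past an adjusted p of 0.05 in colour. Many more grey points lie above 0 at high y values than below it, and Klrc1 lies farthest left of the coloured points.

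The same 8 genes were compared in the controls, which share no library with the injured groups. The controls did enter the spread behind the 8 calls, estimated over all 12 libraries, so they are not an independent check of these genes. In all 8 the control groups also did not overlap, in the same direction, and 3 passed the threshold there. Nqo1 differed by 2.55 ± 0.25 (adjusted p = 0.00592, limma), Prdx1 by 1.12 ± 0.12 (adjusted p = 0.00704) and Txnrd1 by 1.21 ± 0.15 (adjusted p = 0.0196). Cat read 19.0, 17.4 and 21.5 in WT control and 37.9, 39.3 and 44.3 in KO control. Klrc1 read 14.2, 15.9 and 28.3 against 4.09, 3.22 and 1.71 there. Whether the difference between genotypes itself differed with injury was tested by an interaction term. It gave an adjusted p of at least 0.906 for the 8 genes. Trim59 had the smallest unadjusted interaction p of them, 0.0240, with a difference of 0.66 ± 0.19 in controls. Over all protein-coding genes the interaction gave 0 calls (limma, 0%) and 567 genes at an unadjusted p under 0.05 (4.7%). That share is about what this cut-off gives where no gene differs. Single unadjusted interaction p-values below therefore do not mark a gene as dependent on injury. Over all 19288 genes the interaction gave 1 call (0.00518%), a small nucleolar RNA gene.

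The 8 calls rest on few libraries. Leaving out each of the 12 libraries in turn kept every direction. Prdx1 lost its call without WT IRI 1 (adjusted p = 0.0586, limma). Txnrd1 lost its call without WT IRI 1 (0.0586) or KO IRI 3 (0.0511). For Nqo1 the libraries were WT IRI 1 (0.0895), KO IRI 1 (0.0553) and KO IRI 3 (0.0797), and for Klrc1 they were WT IRI 1 (0.0897), KO IRI 2 (0.0656) and KO IRI 3 (0.0784). Cat lost its call without WT IRI 1 (0.0895) or any 1 of the KO IRI libraries (0.0533 to 0.0552). Cd4 lost its call in 9 of 12 cases, all but KO IRI 2, KO control 1 and KO control 2 (0.0505 to 0.116). Klrc2 lost its call in 10, all but WT control 2 and 3 (0.0506 to 0.135), and Trim59 in 11, all but WT IRI 3 (0.0506 to 0.135). Without WT IRI 3 the values were 1.44 for Cd4 (adjusted p = 0.0810), −2.06 for Klrc2 (adjusted p = 0.109) and 1.55 for Trim59 (adjusted p = 0.0203).

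Outside the protein-coding genes 3 more genes passed, all higher in KO IRI, which makes 11 of 19288 (0.057%). Gm20658, an antisense gene, read 0.498, 0.803 and 1.52 in WT IRI and 44.5, 17.6 and 14.1 in KO IRI. It overlaps Vipr2 on the other strand, and the strand setting of the counting is not given in the sources used here, so the 2 cannot be told apart by these values. The others, Gm33707 and Gm37361, are annotated as processed pseudogenes.

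Without the correction for many genes, 1525 protein-coding genes were higher at an unadjusted p under 0.05 (12.6%) and 592 lower (4.91%). A second count used below is of genes whose groups do not overlap, meaning that all 3 KO IRI libraries lie on one side of all 3 WT IRI libraries. It held 1985 genes higher (16.5%) and 1054 lower (8.74%). Without WT IRI 3 it held 2937 (24.3%) and 1512 (12.5%). With fewer WT libraries to clear, such a count can only stay or rise. The higher counts without WT IRI 3, here and below, are therefore no sign that it hid differences. The median log2 difference over protein-coding genes was 0.10, and it moved with the scaling, to 0.36 for the values as deposited and −0.23 with libraries scaled to a common sum. The 3 highest genes of each library held 47.4%, 53.2% and 21.6% of its summed FPKM in WT IRI 1 to 3. In KO IRI 1 to 3 they held 48.2%, 63.1% and 60.6%, so a few genes weigh heavily in a common sum.

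The count without overlap depended on the level of a gene. Among genes with a mean of 1 to 2 FPKM, 3.16% were higher without overlap and 21.7% lower. At 50 FPKM and over the shares were 29.3% and 2.68%. The median difference ran from −0.20 in the lowest class to 0.24 in the highest, and in controls from −0.26 to 0.15. Olfactory receptor genes, which are not known to act in T cells, went further down than the lowest class. Of 312 tested, 165 were lower and 2 higher without overlap, with a median of −0.68 (−0.77 in controls). Summed over all 1134 in the table, their level ran from 1598 to 2596 in WT IRI and from 1036 to 1343 in KO IRI. Members could therefore pass the filter on the mean through their WT levels, which favours lower ones. This count and median are thus no separate check of the trend with level. The part of this level trend in any single result was not tested, and the counts in the lists below are best read against the shares at the level of their genes.

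**Figure D3:**
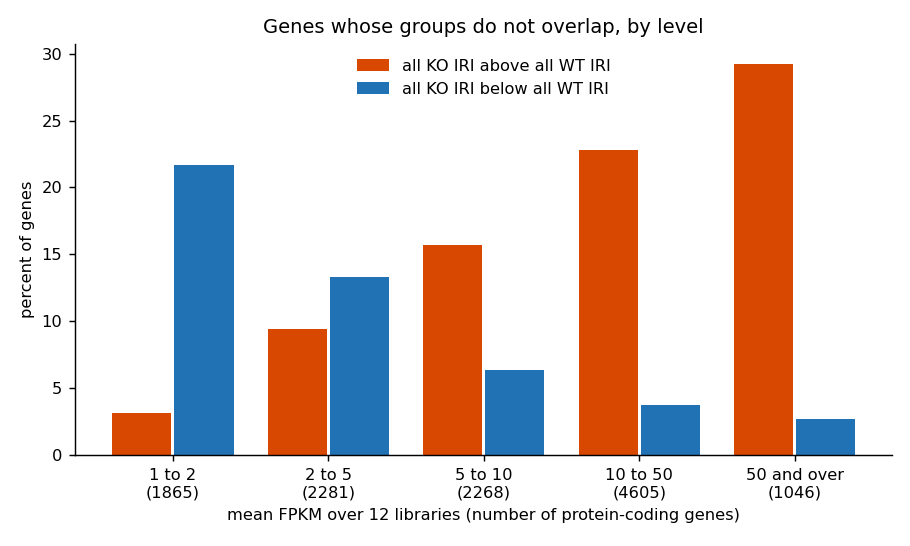
Percent of protein-coding genes (y axis) whose KO IRI libraries all lie above (orange) or all below (blue) the WT IRI libraries, by mean FPKM over 12 libraries (x axis, number of genes in brackets). The share that is higher grows from 3.16% to 29.3% with level, and the share that is lower shrinks from 21.7% to 2.68%.

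Among the 12 tested genes of the KEAP1-NRF2 switch itself (KEAP1, NRF2, the CUL3 ligase and the MAF and BACH partners), 0 passed (limma). Groups did not overlap for 5 that were higher and for 1 that was lower, Keap1, against 16.5% and 8.74% of all protein-coding genes. The median difference was 0.30, and under the 5 scalings it stayed 0.08 to 0.23 above the median of all protein-coding genes. Nfe2l2, whose product is controlled mostly after translation, read 23.2, 27.3 and 18.0 in WT IRI and 23.9, 22.4 and 41.3 in KO IRI, and the groups overlapped (0.31 ± 0.23, adjusted p = 0.524). Nfe2l1, a related factor known for proteasome genes, differed by 0.50 ± 0.12 (adjusted p = 0.155). Mafg, a small MAF partner, differed by 0.55 ± 0.19 (adjusted p = 0.229).

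NRF2 target lists held 61 tested genes in all, of 70. Of these 4 rose and 0 fell (limma), while groups did not overlap for 28 higher and 2 lower members, with a median of 0.42 (0.33 in controls). Without WT IRI 3 these counts were 34 and 2. Over all protein-coding genes the shares without overlap were 16.5% higher and 8.74% lower, or 24.3% and 12.5% without WT IRI 3. Under the 5 scalings the median lay 0.25 to 0.31 above that of all protein-coding genes. The thioredoxin and peroxide list had the most calls, 3 of 16 tested members, with a median of 0.52.

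Within that list Glrx, a glutaredoxin that removes glutathione from proteins, read 20.5, 16.4 and 20.9 in WT IRI and 44.2, 35.1 and 35.4 in KO IRI. The groups did not overlap, and the difference of 0.95 ± 0.16 did not pass (adjusted p = 0.0693). Txn1, thioredoxin itself and named here after its values were seen, read 13.5, 12.1 and 9.82 against 34.3, 34.3 and 28.9 (1.39 ± 0.30, adjusted p = 0.119). Its WT control libraries were uneven, at 19.5, 21.3 and 49.6, which widens the spread shared by all groups. Srxn1, which reactivates peroxiredoxins, ran from 0.255 to 5.33 in WT IRI and from 3.23 to 12.9 in KO IRI, and the groups overlapped (adjusted p = 0.267). On the lower side was Txnrd2, the mitochondrial reductase, at −0.63 ± 0.23 (adjusted p = 0.236), also named after its values were seen.

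Glutathione genes gave 0 calls among 18 tested (limma) and a median of 0.42. They had 6 higher and 1 lower without overlap, against 16.5% and 8.74% of all protein-coding genes. Gsr, which regenerates reduced glutathione, read 17.6, 21.5 and 12.4 in WT IRI and 34.5, 30.0 and 42.6 in KO IRI. The groups were apart, with a difference of 1.03 ± 0.22 (adjusted p = 0.127). Gclc, the catalytic subunit of the first enzyme of glutathione synthesis, read 18.2, 18.6 and 10.6 against 21.4, 25.4 and 33.4 (0.74 ± 0.24, adjusted p = 0.200). Gclm, its regulatory subunit, overlapped between groups (0.61 ± 0.35, adjusted p = 0.402). Slc7a11, the cystine importer and a textbook NRF2 target, was the lower one, with 5.61, 7.97 and 9.66 in WT IRI and 4.87, 5.11 and 3.78 in KO IRI. That difference of −0.63 ± 0.28 did not pass (adjusted p = 0.305), and in controls it was −0.80 ± 0.28.

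NADPH-making enzymes gave 0 calls among 8 tested (limma) and a median of 0.55, with 4 higher without overlap (16.5% over all protein-coding genes). Tkt, the transketolase of the pentose phosphate pathway, read 25.2, 19.2 and 22.7 in WT IRI and 36.1, 33.1 and 43.7 in KO IRI (0.72 ± 0.19, adjusted p = 0.169). Pgls of the same pathway differed by 0.72 ± 0.18 (adjusted p = 0.155), against 0.05 in controls. Among the 19 tested genes for quinones, heme and iron, Nqo1 alone passed, and 9 were higher without overlap. Osgin1, an oxidative stress-induced gene, read 2.65, 2.40 and 4.25 in WT IRI and 14.5, 10.2 and 8.43 in KO IRI (1.55 ± 0.37, adjusted p = 0.151). Ftl1, the ferritin light chain, differed by 0.56 ± 0.16 (adjusted p = 0.184), against 1.07 in controls. Hmox1, heme oxygenase, overlapped between groups, at 18.2, 18.2 and 10.2 against 22.2, 21.2 and 13.2 (0.27 ± 0.26, adjusted p = 0.621).

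T cell identity and receptor signalling genes numbered 32, of which Cd4 passed. Groups did not overlap for 15 higher and 0 lower members (16.5% and 8.74% over all protein-coding genes). Without WT IRI 3 this held for 27 and 0 (24.3% and 12.5%). The median was 0.51, against 0.17 in controls, and it lay 0.28 to 0.44 above that of all protein-coding genes under the 5 scalings. Lat, the adaptor on which receptor signals assemble, read 82.4, 94.8 and 80.4 in WT IRI and 156, 138 and 155 in KO IRI. That is a clear gap between groups, with 0.80 ± 0.12 (adjusted p = 0.0628). Trat1, a partner of the receptor complex, differed by 1.18 ± 0.18 (adjusted p = 0.0593) and Cd5, which dampens receptor signals, by 1.08 ± 0.19 (adjusted p = 0.0841). Cd3e, named after its values were seen, read 100.4, 88.9 and 97.9 against 175, 163 and 165, while its control groups overlapped at 211 to 233 and 186 to 265. Its unadjusted interaction p was 0.00282, and after adjustment no protein-coding gene passed.

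The NK lectin-like receptors lie in a cluster on chromosome 6. Of 23 genes on the list 11 were tested, since the others had means under 1 FPKM. Of the 11, Klrc1 and Klrc2 fell and 0 rose. Groups did not overlap for 5 lower and 0 higher members, against 8.74% and 16.5% of all protein-coding genes. Without WT IRI 3 the counts were 6 and 1, against 12.5% and 24.3%. Among all genes at a mean of 1 to 2 FPKM 21.7% were lower without overlap, and at 2 to 5 FPKM 13.3%. The list median was −0.88 (−0.62 in controls), 0.84 to 1.02 below that of all protein-coding genes under the 5 scalings. The whole list summed to 117, 95.1 and 115 in WT IRI and to 128, 59.4 and 64.9 in KO IRI, with Clec2d making up 78.1 of the sum in KO IRI 1. The other 3 lower members were Klrk1, Klre1 and Klrb1c. Klrk1, which encodes the activating receptor NKG2D and lies beside the Klrc genes (chromosome 6, 129610323 to 129623864, minus strand), read 18.9, 12.7 and 9.78 in WT IRI and 4.78, 2.86 and 3.23 in KO IRI. All KO libraries were below all WT libraries, but the difference of −1.65 ± 0.31 did not pass (adjusted p = 0.0906). Klre1 (chromosome 6, 129577905 to 129585827, plus strand) read 3.63, 4.50 and 10.5 against 1.43, 1.08 and 1.09 (−1.60 ± 0.31, adjusted p = 0.0933). Klrb1c, the NK1.1 antigen and named after its values were seen, read 6.55, 3.32 and 4.09 against 2.22, 2.61 and 1.29 (adjusted p = 0.246). Klrd1, which pairs with both NKG2 receptors, overlapped between groups, with 17.3, 13.1 and 6.88 against 7.44, 2.27 and 1.30. Clec2d, a ligand of such receptors that T cells also make, went the other way, at 11 to 32.1 in WT IRI and 24.6 to 78.1 in KO IRI.

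Beside these receptors stood Zbtb16, which encodes PLZF, the factor that defines NKT and other innate-like T cells. It read 29.8, 14.7 and 14 in WT IRI and 6.94, 6.06 and 5.53 in KO IRI, with no overlap (−1.44 ± 0.28, adjusted p = 0.0933, and −1.09 in controls). Over the innate-like list of 10 genes in the table, the summed level was 48.5 to 74.9 in WT IRI and 51.7 to 93.8 in KO IRI. Much of it is Il18r1, also on the Th1 list, at 20.9, 20.8 and 17.2 against 46.2, 26.6 and 22.1, so the sum hides the lower Zbtb16. The markers of NK cells and cytotoxic granules, 27 genes, summed to 505 to 555 in WT IRI and 595 to 711 in KO IRI. Its median was −0.07 over 26 tested members, with 13 positive, and lay 0.09 to 0.23 below that of all protein-coding genes under the 5 scalings, so the sum and the median differ in direction. Its NK-defining member Ncr1 was between 0.0489 and 0.473 in all 6 libraries, and Eomes between 0.652 and 1.83. The 4 CD8 markers summed to 47.6 to 57.2 in WT IRI and 48.1 to 63.5 in KO IRI, most of it from Runx3 and Itgae. Cd8a was lower in KO IRI, at 2.38, 3.57 and 1.76 against 1.71, 1.23 and 1.11 (adjusted p = 0.266, limma). Cd8b1 was higher, at 2.67, 1.77 and 2.07 against 3.25, 3.52 and 2.92 (adjusted p = 0.264, limma). A share of innate-like CD4 cells that differs between the groups was not tested and cannot be read from bulk levels.

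Cytotoxic granule genes lay on both sides, with 0 calls of 26 tested (limma) and 5 members on each side without overlap. Over all protein-coding genes 16.5% were higher and 8.74% lower without overlap. Gzmk, granzyme K, read 4.33, 1.38 and 1.41 in WT IRI and 10.5, 13.5 and 13.6 in KO IRI. The groups were far apart (2.1 ± 0.32, adjusted p = 0.0593). Gzmb, granzyme B, read 4.18, 3.42 and 11 against 29.1, 13.8 and 24.6 (1.79 ± 0.40, adjusted p = 0.128), and its control difference was 1.93. Cst7, cystatin F, which restrains the proteases that activate granzymes, differed by 1.06 ± 0.15 (adjusted p = 0.0536). On the lower side Fasl, the death ligand, read 30.8, 26.9 and 21.4 against 17.6, 18.2 and 11.8 (adjusted p = 0.200). Prf1, perforin, read 3.80, 3.67 and 4.65 against 2.74, 3.30 and 1.43 (adjusted p = 0.302). Fasl and Prf1 are named after their values were seen.

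**Figure D4:**
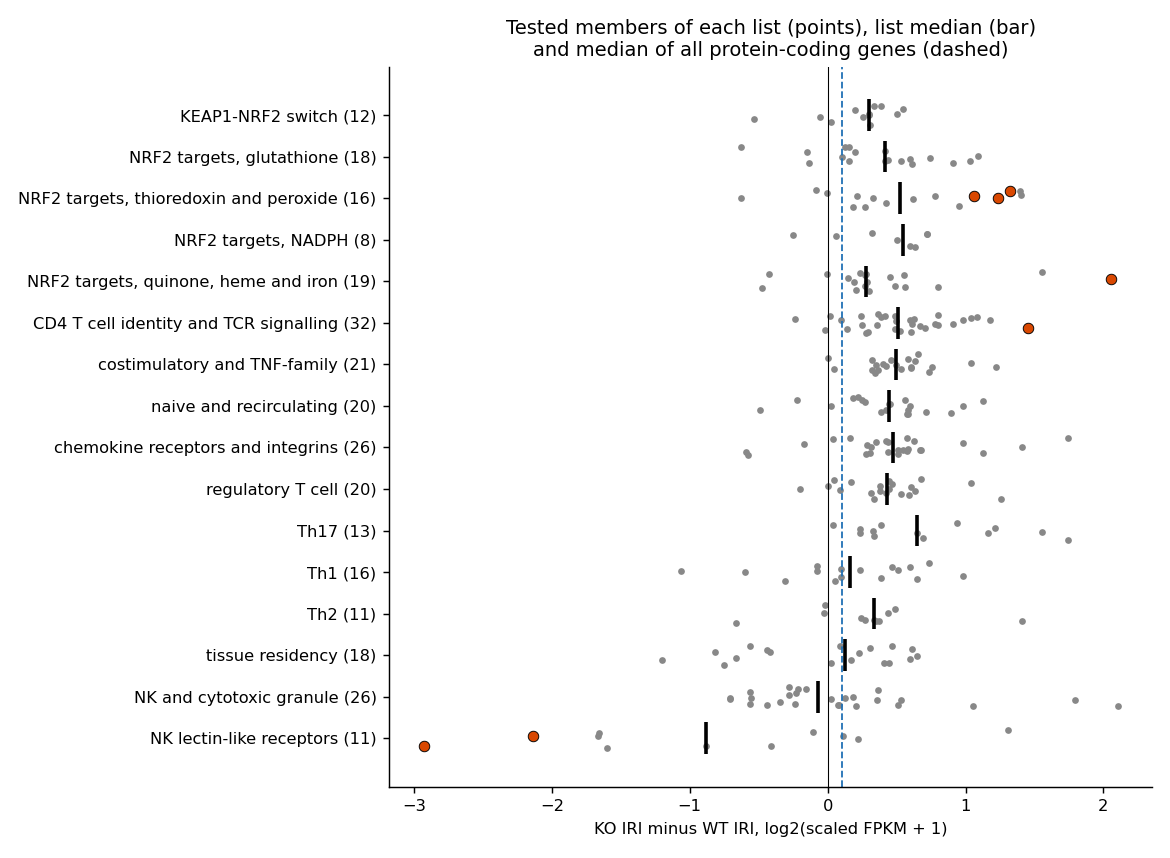
Log2 difference between KO IRI and WT IRI (x axis) of each tested member (points) of 16 gene lists (y axis, number tested in brackets), with members past the threshold in orange, list medians as bars and the median of all protein-coding genes, 0.10, as a dashed line. The NK lectin-like receptors have their median farthest left, at −0.88, and the Th17 list farthest right of those shown, at 0.65.

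Among helper programs, 0 genes passed (limma). The Th17 list had the highest median of the helper lists, 0.65 over 13 tested members (0.34 in controls). It held 9 higher and 0 lower members without overlap, against 16.5% and 8.74% of all protein-coding genes. Ccr6, a chemokine receptor of Th17 cells, read 2.45, 0.776 and 3.31 in WT IRI and 19.0, 7.98 and 4.53 in KO IRI (1.74 ± 0.45, adjusted p = 0.168). Il17a read 0.533 in WT IRI 1 and was at 0 in the other WT IRI libraries, against 5.18, 1.44 and 1.58 in KO IRI. In both genes KO IRI 1 was the highest library. Tmem176a and Tmem176b, which overlap each other on opposite strands, differed by 1.21 ± 0.31 and 0.93 ± 0.25.

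Th1 genes were split, with 7 higher and 1 lower without overlap among 16 tested (16.5% and 8.74% over all protein-coding genes). The list median was 0.17. Cxcr3, a homing receptor of Th1 cells, read 16.8, 9.55 and 19.5 in WT IRI and 32.6, 27.5 and 30.0 in KO IRI (0.98 ± 0.23, adjusted p = 0.142). In controls it was −0.19, and the unadjusted interaction p by limma was 0.00472, or 0.906 adjusted. Il12rb2, the signalling chain of the IL-12 receptor, was the lower one, at 24.4, 11.8 and 16.8 against 6.21, 8.91 and 7.86 (−1.06 ± 0.26, adjusted p = 0.149, and −1.21 in controls). Tbx21, which encodes the Th1 factor T-bet and is named after its values were seen, overlapped between groups, at 5.54 to 7.48 and 5.53 to 7.03.

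The regulatory T cell list held 5 higher and 0 lower members without overlap among 20 tested, with a median of 0.43. For all protein-coding genes the shares were 16.5% and 8.74%. Izumo1r, a folate receptor relative found on regulatory T cells, read 6.03, 3.75 and 8.62 in WT IRI and 18.6, 12.3 and 15.8 in KO IRI (1.26 ± 0.30, adjusted p = 0.142). Foxp3, the lineage factor, overlapped widely, at 12.8, 10.2 and 9.82 against 25.6, 14.3 and 7.19 (0.33 ± 0.34, adjusted p = 0.649). Th2 genes had 2 of 11 higher without overlap, led by Ccr4 at 1.89, 2.95 and 3.94 against 15.6, 7.77 and 6.29 (1.41 ± 0.30, adjusted p = 0.119).

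Costimulatory and TNF-family genes were positive in 21 of 21 tested members, against 7456 of all 12065 protein-coding genes, a count that moves with the scaling. The list had 9 higher without overlap (15 without WT IRI 3), against 16.5% (24.3%) of all protein-coding genes. Its median was 0.50 (0.09 in controls). None passed by limma. Tnfrsf4, the OX40 receptor, read 30.4, 34.6 and 44.4 in WT IRI and 87.7, 76.9 and 62.8 in KO IRI (1.04 ± 0.19, adjusted p = 0.0841). Tnfsf11, which encodes RANKL, differed by 1.22 ± 0.27 (adjusted p = 0.127). Cd40lg, the helper ligand for B cells, read 20.8, 20.8 and 30.1 against 41.1, 37.7 and 34.6, and in controls the difference was −0.15 (interaction by limma, adjusted p = 0.906). With libraries scaled to a common sum the median of this list was 0.16.

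Naive and recirculating genes had 9 of 20 higher without overlap (16.5% over all protein-coding genes) and a median of 0.45, close to their control median of 0.47. Itgb7, an integrin for gut homing, read 24.0, 27.1 and 30.9 in WT IRI and 94.4, 48.0 and 48.7 in KO IRI (1.12 ± 0.23, adjusted p = 0.118). Ccr7, the lymph node homing receptor, read 44.3, 52.3 and 41.2 against 67.1, 78.9 and 62.1 (0.58 ± 0.18, adjusted p = 0.193). Tissue residency genes were mixed, with 3 higher and 5 lower of 18, against 16.5% and 8.74% of all protein-coding genes. Itga1, a collagen-binding integrin of resident cells, read 4.51, 3.71 and 6.0 against 2.11, 2.14 and 2.89 (−0.75 ± 0.20, adjusted p = 0.174). Cd69, also induced by receptor signals, read 88.4, 98.7 and 82.6 against 142, 136 and 134 (0.61 ± 0.13, adjusted p = 0.115).

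Further lists gave 1 call in all, Trim59, which is also on the cell cycle list (1 of 35 tested). TCR-induced factors and brakes had 7 higher without overlap of 27 and a median of 0.15, close to the 0.10 of all protein-coding genes, with Dusp4, a MAP kinase phosphatase, at 1.17 ± 0.19 (adjusted p = 0.0693). Respiratory chain subunits had 15 of 44 higher without overlap and a median of 0.36, glycolysis genes 8 of 21 and 0.18, proteasome subunits 10 of 33 and 0.32, and heat shock and unfolded protein genes 7 of 24 and 0.34. Chemokine receptors and integrins had 9 of 26 higher and a median of 0.47, cytokines and their receptors 10 of 32 and 0.30, and inhibitory receptors 2 of 16 and 0.13. Immediate early genes had 9 of 17 and a median of 0.39, interferon-stimulated genes 8 of 27 and 0.38, and p53 and cell death genes 9 of 20 and 0.39. Over all protein-coding genes 16.5% were higher without overlap, with 22.8% at 10 to 50 FPKM and 29.3% at 50 and over. Several of these lists lie near those shares. Scaled to a common sum, which put the median of all protein-coding genes at −0.23, all the lists of this paragraph other than chemokine receptors and integrins and p53 and cell death had medians below 0. These ran from −0.24 for TCR-induced factors to −0.0047 for immediate early genes. The KEAP1-NRF2 switch (−0.08), the quinone, heme and iron list (−0.06), Th1 (−0.14) and tissue residency (−0.21) were below 0 under that scaling too. Aldoa, a glycolytic aldolase, read 23.7, 23.1 and 28.6 in WT IRI and 54.5, 49.7 and 47.6 in KO IRI (0.99 ± 0.20, adjusted p = 0.117).

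Some genes with the smallest unadjusted p were on no list. Among the higher ones Lamtor2, a scaffold of the lysosomal MAPK and mTOR pathway, read 8.68, 8.93 and 6.62 in WT IRI and 20.0, 17.3 and 20.3 in KO IRI (1.16 ± 0.17, adjusted p = 0.0583). Its control groups overlapped, with a difference of 0.09 (interaction by limma, adjusted p = 0.906). Twf2, an actin-binding twinfilin, differed by 0.95 ± 0.14 (adjusted p = 0.0593) and Wdr12, a ribosome biogenesis factor that overlaps Carf on the other strand, by 0.96 ± 0.15 (adjusted p = 0.0628).

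Among the lower ones Ntrk3, a neurotrophin receptor, read 8.33, 7.25 and 7.93 in WT IRI and 3.64, 4.23 and 3.46 in KO IRI (−0.89 ± 0.14, adjusted p = 0.0628). Its controls differed by 0.26 ± 0.14 in the other direction, and its unadjusted interaction p of 0.000127 was the smallest of the named protein-coding genes, with an adjusted p of 0.906 by limma. Samd3 read 7.31, 4.22 and 6.90 against 1.73, 2.14 and 2.28 (−1.20 ± 0.19, adjusted p = 0.0628). Slc30a7, a zinc transporter of the Golgi, read 18.2, 25.8 and 23.1 against 9.10, 12.3 and 10.01 (−1.02 ± 0.20, adjusted p = 0.0933). Its control difference was 0.01, and its interaction did not pass (limma, adjusted p of at least 0.906). Jag1, a Notch ligand, differed by −1.08 ± 0.22 (adjusted p = 0.112) and Aff4, a subunit of the super elongation complex, by −0.58 ± 0.12 (adjusted p = 0.114). Atp8a2, a phospholipid flippase that shares its locus with Nupl1, differed by −1.09 ± 0.23 (adjusted p = 0.119). The olfactory receptor Olfr118 differed by −1.33 ± 0.29 (adjusted p = 0.127).

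**Figure D5:**
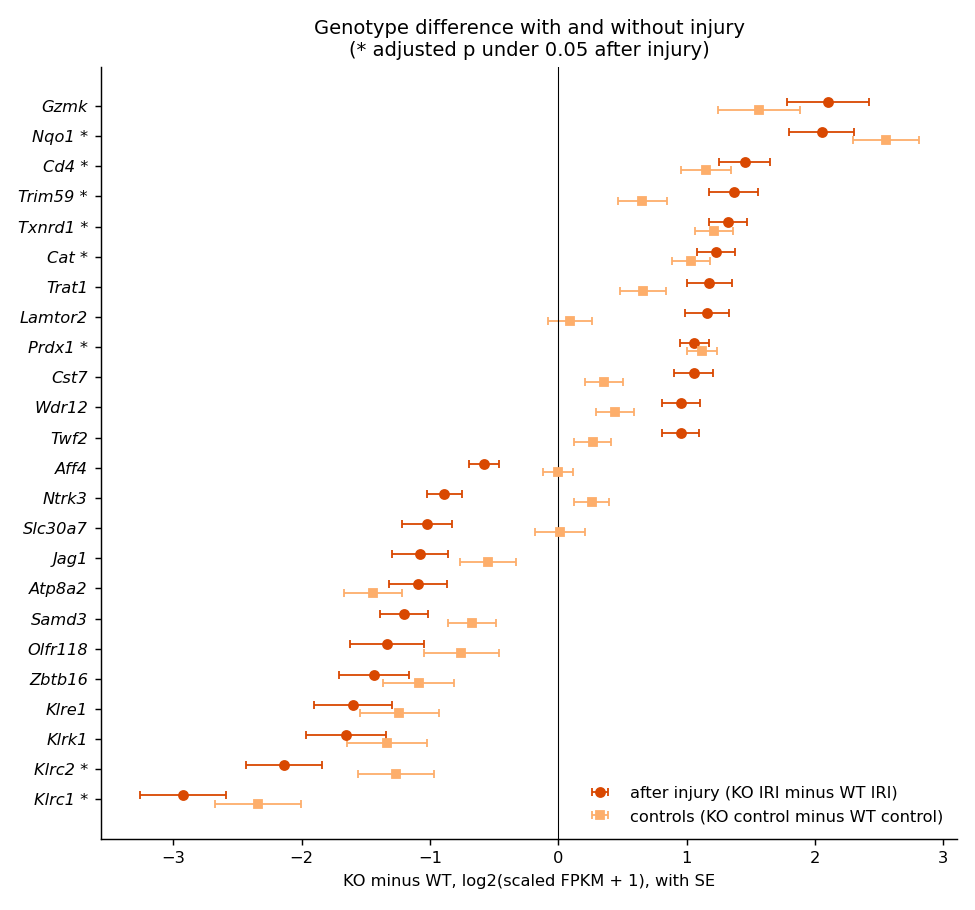
Log2 difference between KO and WT (x axis, with SE bars) after injury (circles) and in controls (squares) for the 24 protein-coding genes, 12 in each direction, with the smallest unadjusted p among those whose injured groups did not overlap (predicted genes left out), asterisks marking those past the threshold after injury. For Nqo1, Prdx1 and Txnrd1 the 2 intervals overlap, while Lamtor2, Slc30a7, Aff4 and Ntrk3 have control values near 0 or on the other side. The genes were chosen by their p after injury, and none passed the interaction test (limma, adjusted p of at least 0.906).

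Across all 12065 protein-coding genes the differences after injury and in controls had a Spearman correlation of 0.383. Both follow the trend with level given above, and genes are not independent replicates, so this is a description. Of the 1985 genes higher without overlap after injury, 397 were also higher without overlap in controls, which is 20.0% of the first set and 32.1% of the 1237 in controls (10.3%). Of the 1054 lower genes, 292 were shared, 27.7% of the first set and 35.8% of the 815 in controls (6.76%). In controls 4 protein-coding genes passed (0.0332%).

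RNA of other kidney cells varied between libraries. Proximal tubule markers, 16 genes, summed to 30.6 to 96.8 in WT IRI and 42.9 to 307 in KO IRI, with KO IRI 3 the highest. The 9 injured tubule markers summed to 356, 354 and 66.4 in WT IRI and 20.0, 331 and 371 in KO IRI, so WT IRI 3 and KO IRI 1 held little. Neutrophil markers, 14 genes, summed to 61.6 to 97.1 in WT IRI and 23.4 to 81.1 in KO IRI, but 0 of the 10 tested members were positive. Their median was −0.67, with 3 lower without overlap (6 without WT IRI 3). Macrophage and monocyte markers, 17 genes, summed to 236 to 255 and 175 to 318, with a median of 0.03. The B cell list summed to 18.5 to 29.5 and 12.9 to 29.1, with a median of −0.42 over 11 tested members and 3 lower without overlap (6 without WT IRI 3), and the dendritic cell and MHC class II list to 239 to 349 and 292 to 455. Over all protein-coding genes 8.74% were lower without overlap (12.5% without WT IRI 3). At a mean of 1 to 2 FPKM the share was 21.7%, and at 2 to 5 FPKM 13.3%. Olfactory receptor genes had a median of −0.68, further down than the −0.20 of all genes at 1 to 2 FPKM. The part of this level trend and of other cells' RNA in the results was not tested.

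The count of calls depends on the fit. With protein-coding genes only in the fit and the adjustment, 72 genes passed (63 higher and 9 lower), all 8 among them. With only the 6 IRI libraries 3 passed, and Txnrd1 was the only 1 of the 8 among them (adjusted p = 0.0440); the other 7 had adjusted p from 0.132 to 0.205. With a pseudocount of 5, 4 of the 8 passed, with the values as deposited 5 of the 8, and with libraries scaled to a common sum 0. In that last scaling a few genes weigh heavily, as given above.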

How the data were processed

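Total RNA of kidney CD4 T cells was sequenced as 36-base paired reads from 1 ng with a stranded pico-input total RNA kit, per the labels' protocols. The authors deposited FPKM per gene. GRCm38, Cufflinks 2.2.1, TopHat2 2.1.0, Partek 7.0 and bcl2fastq 2.17.1.14 were used, per the submitters' processing notes, which give no roles. Sequencing depth is unknown, and FPKM permits no count model.

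GENCODE mouse release 21 named 52485 of 52632 genes. Each library was divided by a median-ratio factor over 16018 genes above 0 in all 12 libraries. Genes averaging 1 FPKM or more were fitted with limma 3.58.1 (R 4.3.3, 1 mean per group, mean-variance trend) on log2(scaled FPKM + 1), with Benjamini-Hochberg adjustment over 19288 genes. The script was tested on simulated data. Errors are standard errors of the fit unless stated.

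Named genes are those past an adjusted p of 0.05, the 12 smallest p per direction without overlap between groups, up to 4 such members per described list, and a fixed set of KEAP1-NRF2 genes with Cd4 and Klrc1. Members and lists were chosen with earlier results of these data known. All libraries carry 1 date label, so no batch was tested. Alternatives were other scalings, filters, pseudocounts, variance models, sample sets and a replicate block. Some genes are not reported here.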

Additional observations from a re-analysis of the deposited data

Results flagged for a closer look

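The genotype difference of Gm25744, a small nucleolar RNA gene (chromosome 17, 34952013 to 34952075), itself differed between injured and control mice by the interaction term, at −7.74 on the log2 scale (limma). It read 557, 109 and 159.6 in KO control and was listed at 0 in the other libraries, apart from a trace in WT IRI 1. Gm25744 was the only 1 of 19288 genes to pass the interaction test. It passed the filter on the mean through the KO control libraries, where it was high. A 0 in this table can be a failed estimate, and the gene is very short. The call alone therefore does not show that injury changed the genotype difference.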

How the results depend on the processing

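The count of 8 protein-coding genes was 7 to 11 with values as deposited, quantile normalization, factors over protein-coding genes, a pseudocount of 0.1, or without the 2 control libraries that stand apart (WT control 3 and KO control 1). As deposited 87.5% of calls were higher, and with factors over protein-coding genes 62.5%, against 75%. It was 0 with a common sum, 35 with a mean of at least 5 FPKM, 5 with no filter or no trend, 3 with only the 6 IRI libraries, 72 with protein-coding genes only, 4 with a pseudocount of 5, 13 with robust variance and 5 without the 3 libraries that stand apart (WT IRI 3 and those 2; 1 of the 8 genes among the calls). Both sets of left-out libraries and the block on values as deposited were chosen after seeing the data. Leaving out 1 library gave 1 (WT IRI 1 or KO IRI 3) to 11, with 4 without KO IRI 1 and 5 without KO IRI 2, KO control 3 or WT control 1. The 4 calls in controls became 1 with a common sum, 2 with no trend or as deposited, 14 with protein-coding genes only, 8 with robust variance, and 2 to 167 without 1 library, the highest without KO control 2. The interaction's 1 call became 2 with no filter, 0 with protein-coding genes only or a pseudocount of 5, 18 without the 2 control libraries, 27 without the 3, and 1 to 12 without 1 library. Replicate numbers were not taken to pair the libraries: deviations of same-numbered WT IRI and KO IRI libraries correlated between −0.034 and −0.0038, and those of any 2 groups between −0.034 and 0.206. The replicate block gave 0 calls after injury, and 1 on values as deposited, where controls also gave 1. Reversed with a common sum were Hmox1 (−0.095), Nfe2l2 (−0.069), Psmd8 (−0.013) and Sqstm1 (−0.092). Of 3559 values of 128 named genes, 3555 kept their direction. The cause of these shifts was not tested. Depth is unknown, so precision of low genes cannot be given.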
